A study of Mus musculus with 9 samples.

Results

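The genes described here are the 3 testicans Spock1, Spock2 and Spock3 and their relatives Sparc, Sparcl1, Smoc1 and Smoc2. These 7 of the 18193 genes tested were chosen by gene symbol, with earlier results of these data known, and Spock1 entered because of its difference between 2 of the cell populations. They hold 13 probe sets, and the main probe set of each gene was selected on the highest mean over the 9 arrays. RNA came from cells sorted by flow cytometry out of the back skin of 3 mice, numbered 2, 4 and 5, at postnatal day 2, with 1 array for each mouse and gate. Gate R1 held GFP-CD133- cells, the dermal pool from which papilla cells had been removed. Gate R2 held GFP-CD133+ cells, described in the labels as papilla cells of zigzag hairs, and gate R3 held GFP+CD133+ cells, described as papilla cells of guard, awl and auchene hairs. Papillae are condensations of mesenchymal cells that sit under each hair follicle and direct its growth. Prom1 encodes CD133. Published work with such mice used GFP to report Sox2, but the labels name no strain, allele, sex or promoter for it. All 3 gates of a mouse came from the same skin, and about 50000 cells were obtained of each population.

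SPARC, also called osteonectin, is a secreted calcium-binding protein that binds collagens and modulates how cells attach to matrix without itself being a main structural part of it. Its relatives share with it a follistatin-like module and a calcium-binding module: SPARCL1 (hevin) has a long acidic N-terminal part, SMOC1 and SMOC2 carry thyroglobulin modules and lie in basement membranes, and the testicans carry a thyroglobulin module and glycosaminoglycan chains. Testicans are best known from brain and are reported to act on membrane-type matrix metalloproteinases and cathepsins, and SMOC proteins to antagonise BMP signalling, which takes part in hair follicle formation.

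Values are log2 expression values made by the authors with RMA, so a difference of 1 is a doubling, and ± is the SD of 3 arrays. Array medians lay between 6.13 and 6.20. Background was judged from 47 probe sets of olfactory receptors, whose 95th percentile was 5.12 to 5.44 depending on the array. The number of arrays limits the precision. For Prom1, the gene of the sorted surface protein, the R1, R2 and R3 levels were 7.43 ± 0.36, 11.85 ± 0.04 and 10.32 ± 0.19. Those of Sox2 were 4.19 ± 0.34, 7.08 ± 0.61 and 10.66 ± 0.12, so it was high in R3 and also above background in R2, the gate sorted as GFP-. Correlations over the main probe set of each gene were 0.984 to 0.988 for pairs of arrays within a gate. Pairs from different gates had 0.952 to 0.975 (pairs share the normalization). The signal of beta-actin at its 3' end exceeded that at its 5' end by 0.05 ± 0.01 in R1, 0.16 ± 0.06 in R2 and 0.15 ± 0.04 in R3, so this sign of RNA quality or amplification moved with R1 against the other gates. Its part in the results was not tested. For Gapdh the same difference was 2.85 ± 0.19, 2.68 ± 0.15 and 2.84 ± 0.17, and the gates overlapped.

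The 7 genes took different orders across the gates. Spock1 and Spock3 were highest in R3, Smoc1 was highest in R2, and Smoc2 was highest in R1. Sparcl1 was higher and Sparc slightly lower in both CD133+ gates than in R1, while Spock2 had overlapping levels in all 3 gates. A gene was called where limma gave a Benjamini-Hochberg adjusted p under 0.05 over all 18193 genes. Spock1 is given as a description with no test, and counts are over the other 6. For R2 against R1, 2 of the 6 were called higher (Sparcl1 and Smoc1) and 1 lower (Sparc), where 6.89% of all genes were called higher and 6.16% lower. For R3 against R1, 3 were called higher (Spock3, Sparcl1 and Smoc1) and 2 lower (Sparc and Smoc2), against 7.9% and 10.8% of all genes. For R3 against R2, 1 was called higher (Spock3) and 1 lower (Smoc1), against 1.97% and 3.06%. The comparisons share arrays and are therefore not independent: R2 and R3 are each set against the same R1 arrays. Over the 6 genes the median log2 change was -0.125 for R2 against R1, 0.45 for R3 against R1 and 0.05 for R3 against R2, beside -0.02, -0.01 and -0.01 over all genes.

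**Figure D1:**
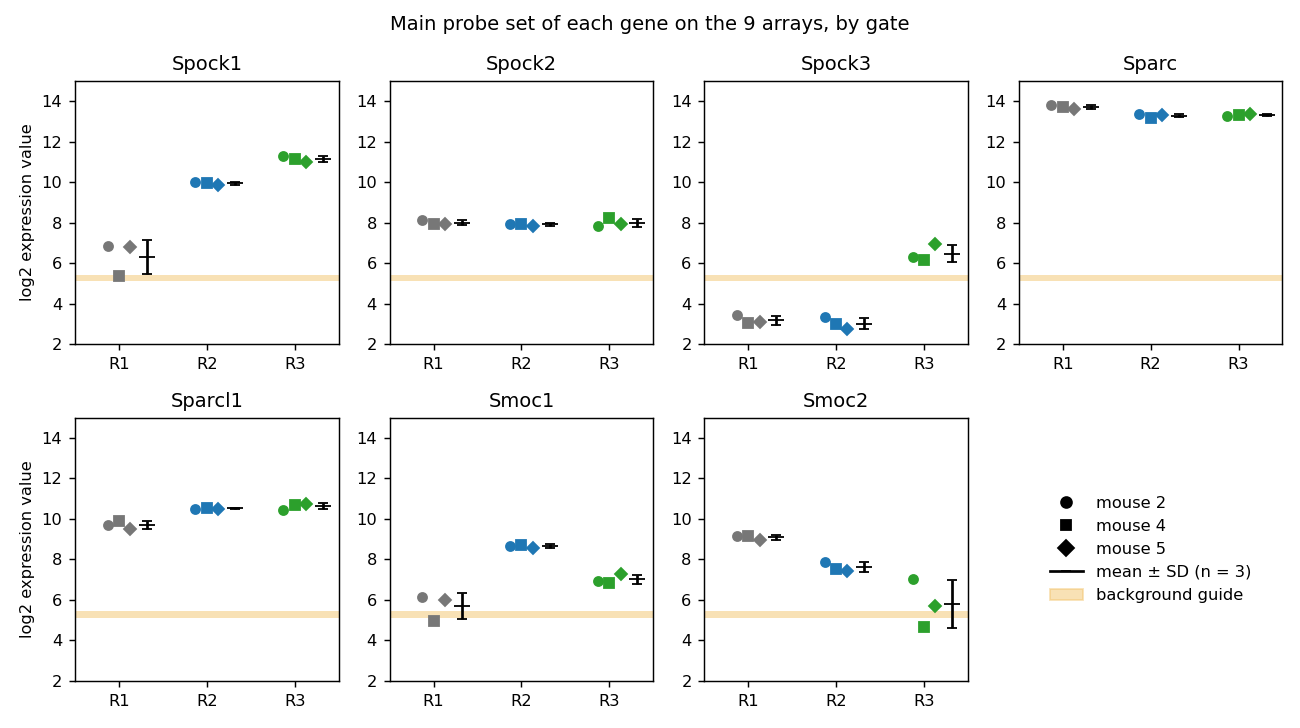
Log2 expression value of the main probe set of each gene on the 9 arrays, by gate (x axis), with a marker for each mouse, a line at the gate mean and the background guide where it falls in the panel. Spock1 is lowest in R1 and highest in R3, Spock3 stands above background in R3 alone, Smoc1 peaks in R2 at 8.66, and Smoc2 is highest in R1 and lowest in R3.

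Spock1 encodes testican-1, a proteoglycan with heparan and chondroitin sulfate chains that is reported to inhibit cathepsin L and to block activation of pro-MMP2 by membrane-type metalloproteinases. Its log2 level was 6.85, 5.36 and 6.78 on the R1 arrays of mice 2, 4 and 5. On the R2 arrays it was 9.99, 9.98 and 9.86, and on the R3 arrays 11.31, 11.15 and 11.02. No array of a gate overlapped with another gate, and the R1 value of mouse 4 was low, near the background guide, while the R2 and R3 arrays differed little among mice. The gate means were 6.33 ± 0.84, 9.94 ± 0.07 and 11.16 ± 0.15. R2 exceeded R1 by 3.61 (12.2-fold), which is the difference for which the gene was chosen, and R3 exceeded R1 by 4.83 (28.5-fold). R3 exceeded R2 by 1.22 (2.33-fold), with differences of 1.16 to 1.32 within the 3 mice.

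The second Spock1 probe set had levels of 6.22, 5.71 and 5.32 in R1, 8.03, 8.17 and 8.50 in R2 and 10.05, 10.13 and 9.41 in R3. It gave the same order with no overlap of gates. Its differences were 2.49 (5.6-fold) for R2 against R1, 4.11 (17.3-fold) for R3 against R1 and 1.62 (3.08-fold) for R3 against R2. In bulk RNA of sorted cells, fewer cells of a type and less RNA per cell cannot be told apart, here and for each gene below.

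Spock3 encodes testican-3, a heparan sulfate proteoglycan reported, like testican-1, to inhibit membrane-type metalloproteinases. Its log2 level was 3.42, 3.02 and 3.08 in R1 and 3.32, 2.98 and 2.75 in R2, all under the background guide. In R3 it was 6.29, 6.17 and 6.94. The R1 and R2 arrays overlapped, and every R3 array stood above both. The gate means were 3.17 ± 0.21, 3.02 ± 0.29 and 6.47 ± 0.42. R3 exceeded R1 by 3.29 (SE 0.23; 9.79-fold, 95% confidence interval 6.85 to 14.0; limma adjusted p = 1.76e-05) and R2 by 3.45 (10.9-fold, interval 7.63 to 15.6; adjusted p = 3.35e-05). Both folds are measured against dim signals. R2 and R1 differed by -0.16 (interval -0.67 to 0.36; adjusted p = 0.734), a difference between values at background that bounds no change in the RNA.

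The other Spock3 probe set did not follow. Its levels were 2.37 ± 0.14 in R1, 2.52 ± 0.11 in R2 and 2.45 ± 0.03 in R3, under the background guide in every gate (limma adjusted p = 0.532, 0.744 and 0.849 for R2 against R1, R3 against R1 and R3 against R2, each probe set tested singly). With the mean of both probe sets the Spock3 differences were 1.68 for R3 against R1 (3.21-fold, adjusted p = 1.88e-05) and 1.69 for R3 against R2 (3.22-fold, adjusted p = 5.32e-05).

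Spock2 encodes testican-2, which is reported to relieve the inhibition of metalloproteinases by other testicans. Its log2 level was 8.14, 7.95 and 7.95 in R1, 7.95, 7.95 and 7.85 in R2 and 7.83, 8.23 and 7.94 in R3. The gates overlapped throughout, with means of 8.01 ± 0.11, 7.92 ± 0.05 and 8.0 ± 0.20. R2 differed from R1 by -0.09 (95% confidence interval -0.40 to 0.21; limma adjusted p = 0.723), R3 from R1 by -0.01 (interval -0.31 to 0.29; adjusted p = 0.972) and R3 from R2 by 0.08 (interval -0.22 to 0.39; adjusted p = 0.801). Each interval lies within less than a doubling either way, on a probe set above background in all gates. Its second probe set was at or under the background guide, with 5.06 ± 0.11, 4.74 ± 0.21 and 4.98 ± 0.12.

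**Figure D2:**
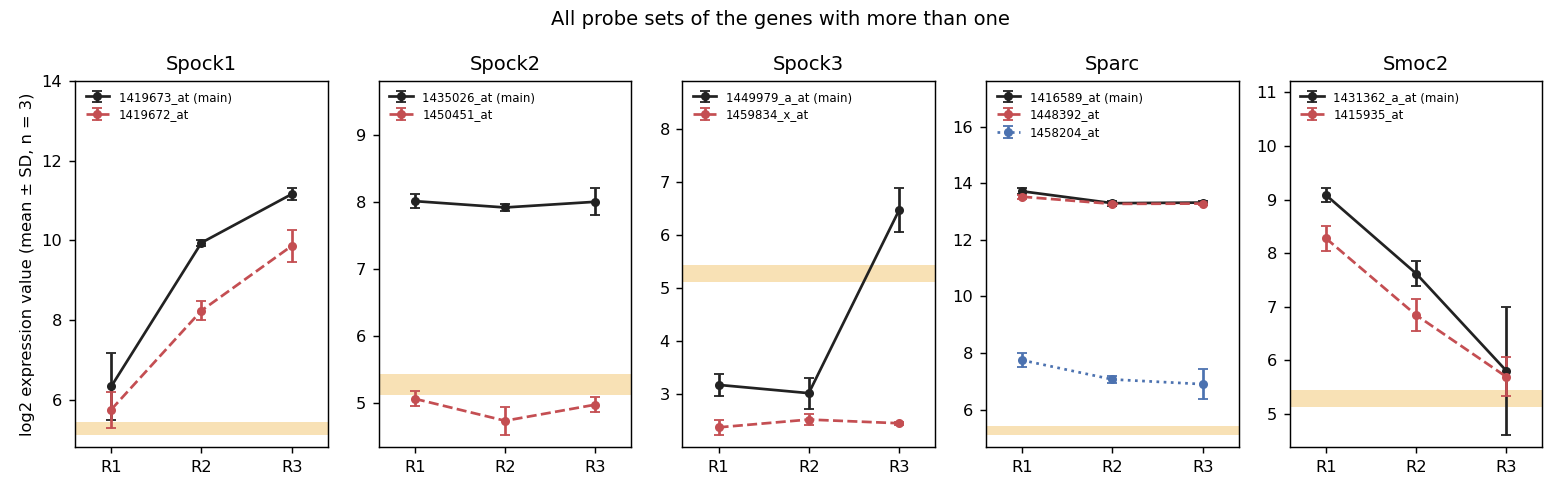
Log2 expression value of every probe set of the genes that have more than 1, by gate. Points are the mean of 3 arrays and bars the SD. Both Spock1 probe sets are lowest in R1 and highest in R3, both Smoc2 probe sets are in the opposite order, and the second Spock3 probe set stays between 2.37 and 2.52 in every gate.

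The promoters of the testicans are shown because these 3 genes of one family took different orders across the gates. Windows came from a RefSeq promoter table (GRCm38.p6), in which 4 of the 7 genes had an entry; the 250 bases before the annotated start are printed 5′ to 3′ on the strand of the gene. The Spock1 window is chr13:57908333-57908582 on the minus strand, the Spock3 window chr8:62950982-62951231 on the plus strand (the more upstream of its entries) and the Spock2 window chr10:60106007-60106256 on the plus strand. Capitals mark a GC box, GGGCGG on either strand.
Spock1: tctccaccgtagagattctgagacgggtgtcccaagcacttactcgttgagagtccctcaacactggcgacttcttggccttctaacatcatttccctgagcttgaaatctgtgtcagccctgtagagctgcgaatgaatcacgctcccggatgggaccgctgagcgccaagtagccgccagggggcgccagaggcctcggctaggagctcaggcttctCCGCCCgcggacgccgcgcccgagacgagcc
Spock3: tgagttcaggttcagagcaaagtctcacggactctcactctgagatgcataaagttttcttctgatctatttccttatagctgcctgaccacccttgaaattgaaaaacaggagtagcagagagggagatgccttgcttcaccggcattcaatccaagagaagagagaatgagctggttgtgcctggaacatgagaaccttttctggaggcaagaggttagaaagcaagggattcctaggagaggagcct
Spock2: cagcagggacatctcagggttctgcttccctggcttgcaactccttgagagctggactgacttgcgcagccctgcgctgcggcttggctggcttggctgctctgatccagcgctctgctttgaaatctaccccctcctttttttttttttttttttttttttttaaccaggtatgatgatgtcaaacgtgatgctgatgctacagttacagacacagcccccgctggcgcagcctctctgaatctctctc

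The Spock1 window was 61.2% G and C and held 20 CpG, more than 82.1% of the 32851 promoter windows in the table, whose medians were 52.4% and 6 CpG. It held the only GC box among these windows, on the opposite strand 31 bases before the start. Spock3 had 46.4% G and C and 2 CpG, and Spock2 had 51.2% and 7 CpG. The more downstream Spock3 entry, not printed, had 56.4% G and C and 3 CpG. The letters GGGCGG were in 32.7% of all windows on either strand. The TATA box letters TATAAA, also searched on both strands, were in 12.4% of all windows. The CCAAT box letters, searched likewise, were in 33.8%. The core letters ACAAT of sites for SOX proteins, searched likewise, were in 27.7%. Apart from those of the GC box, none of these letters was in a printed window. That says only that the letters not found are absent from these 250 bases.

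Sparc, the founding gene of the family, encodes a collagen-binding protein made by many mesenchymal cells. Its log2 level was 13.81, 13.74 and 13.60 in R1, 13.36, 13.20 and 13.32 in R2 and 13.28, 13.30 and 13.36 in R3. These values are near the top of the range of the arrays (14.8), and the R1 arrays stood above all 6 others. The means were 13.72 ± 0.11, 13.30 ± 0.09 and 13.32 ± 0.04. R2 was 1.34-fold lower than R1 (change -0.42, SE 0.11, 95% confidence interval -0.68 to -0.16; limma adjusted p = 0.0409), and R3 was 1.32-fold lower (change -0.40; adjusted p = 0.0384). R3 and R2 differed by 0.02 (interval -0.24 to 0.28; adjusted p = 0.95).

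The Sparc calls lay close to the threshold. With the mouse as a fixed replicate block they were lost (limma adjusted p = 0.0603 for R2 against R1 and 0.0565 for R3 against R1), and with a random one they were kept (0.0348 and 0.033). For R2 against R1 the adjusted p was 0.118 without the R1 array of mouse 2, 0.108 without that of mouse 4, and 0.0718, 0.139 and 0.0811 without the R2 arrays of mice 2, 4 and 5. For R3 against R1 it was 0.112 and 0.102 without the same R1 arrays, and 0.0975, 0.101 and 0.0633 without the R3 arrays of mice 2, 4 and 5. A second bright probe set had 13.52 ± 0.07, 13.27 ± 0.04 and 13.28 ± 0.06 and was not called when probe sets were tested singly (adjusted p = 0.208 and 0.195 against R1). The dimmest of the Sparc probe sets had 7.75 ± 0.25, 7.07 ± 0.12 and 6.90 ± 0.52 and was lower in R3 than in R1 by -0.85 (adjusted p = 0.0451).

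Sparcl1 encodes hevin, which reduces cell adhesion and, in brain, takes part in synapse formation. Its single probe set had log2 levels of 9.70, 9.90 and 9.52 in R1, 10.50, 10.56 and 10.51 in R2 and 10.46, 10.69 and 10.72 in R3. Every R2 and R3 array exceeded every R1 array, and R2 and R3 overlapped. The means were 9.71 ± 0.19, 10.52 ± 0.03 and 10.62 ± 0.14. Sparcl1 was 1.76-fold higher in R2 than in R1 (change 0.81, SE 0.14, fold interval 1.42 to 2.17; limma adjusted p = 0.00381) and 1.89-fold higher in R3 than in R1 (change 0.92, fold interval 1.53 to 2.33; adjusted p = 0.00139). R3 and R2 differed by 0.10 (interval -0.20 to 0.41; adjusted p = 0.758).

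Smoc1 encodes a secreted basement membrane protein that binds and antagonises BMP signalling. Its single probe set had log2 levels of 6.13, 4.98 and 6.0 in R1, 8.66, 8.74 and 8.57 in R2 and 6.92, 6.84 and 7.28 in R3. No gates overlapped, and R3 lay between R1 and R2; the R1 value of mouse 4 was again the lowest of the gate, as for Spock1, and here lay under the background guide of its array. The means were 5.70 ± 0.63, 8.66 ± 0.08 and 7.01 ± 0.23. Smoc1 was 7.75-fold higher in R2 than in R1 (change 2.96, SE 0.27, fold interval 5.08 to 11.8; limma adjusted p = 0.000133) and 2.48-fold higher in R3 than in R1 (change 1.31, fold interval 1.63 to 3.79; adjusted p = 0.00859). In R3 it lay 3.12-fold under R2 (change -1.64, fold interval 2.04 to 4.77; adjusted p = 0.00765). These 3 calls held in all 15 alternatives run for each comparison.

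Smoc2 encodes the closest relative of SMOC1, a matrix protein reported to promote responses to growth factors. Its main probe set had log2 levels of 9.17, 9.14 and 8.94 in R1, 7.88, 7.55 and 7.42 in R2 and 7.04, 4.67 and 5.70 in R3. The gates did not overlap, but the R3 arrays were widely spread, from 7.04 in mouse 2 to 4.67, under background, in mouse 4. The means were 9.08 ± 0.13, 7.62 ± 0.24 and 5.80 ± 1.19. Smoc2 was 9.72-fold lower in R3 than in R1 (change -3.28, SE 0.47, fold interval 4.69 to 20.1; limma adjusted p = 0.00114).

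The steps between neighbouring gates were not called for the main Smoc2 probe set. R2 lay 2.76-fold under R1 (change -1.47, fold interval 1.33 to 5.72; limma adjusted p = 0.0719) and R3 3.52-fold under R2 (change -1.82, fold interval 1.7 to 7.3; adjusted p = 0.06). With the mouse as a replicate block R3 against R2 was called (adjusted p = 0.0492 with a fixed and 0.0489 with a random block). Without the R3 array of mouse 2 R3 was 5.41-fold under R2 (adjusted p = 0.00279) and 14.9-fold under R1 (adjusted p = 9.67e-05). Without that of mouse 4, the lowest, the log2 changes shrank to -1.25 against R2 (limma adjusted p = 0.111) and -2.72 against R1 (adjusted p = 0.00145). The second Smoc2 probe set was less spread, with 8.53, 8.09 and 8.20 in R1, 7.01, 7.02 and 6.49 in R2 and 5.27, 5.88 and 5.93 in R3. Tested singly it was lower in R2 than in R1 (2.7-fold, adjusted p = 0.0037), in R3 than in R1 (6-fold, adjusted p = 8.97e-05) and in R3 than in R2 (2.22-fold, adjusted p = 0.0213).

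**Figure D3:**
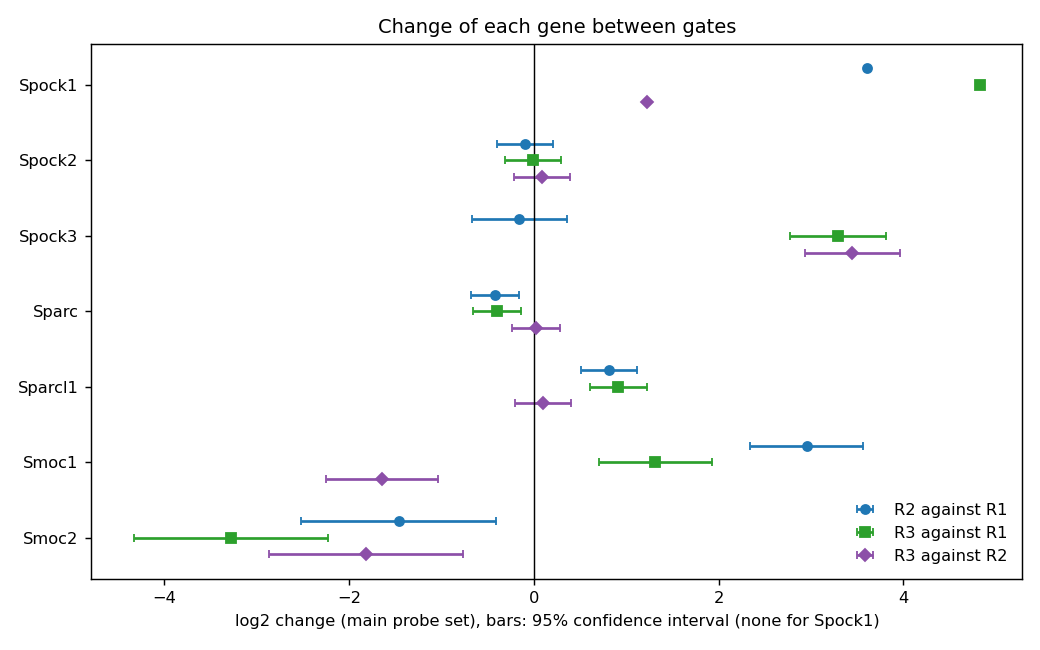
Log2 change of the main probe set of each gene in the 3 comparisons of gates, with 95% confidence intervals from the limma fit for all genes but Spock1, which is shown without one. Smoc1 and Smoc2 have changes of opposite sign against R1, of 2.96 and -1.47 in R2 and of 1.31 and -3.28 in R3.

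For each gene spanning at least 1 log2 unit, the genes most like it over the 9 arrays were found among 12545 genes. Likeness was the root mean square difference after each gene was centred on its own mean. The genes searched had a highest gate mean at or above the upper end of the background guide, without clone or predicted symbols. Nearest to Spock1 were Sox2ot, the noncoding transcript that overlaps Sox2 (difference 0.54), Slc1a1, a glutamate transporter (0.57), and Corin, a protease known as a papilla marker (0.62). Sox2ot had mean levels of 3.09 (under the background guide), 6.82 and 7.63 in R1, R2 and R3. Nearest to Spock3 were Cdh19, a cadherin of Schwann cell precursors (0.33), Mlip (0.33) and Mag, a myelin glycoprotein (0.34). Cdh19 had 3.92, 3.17 and 7.06, and Mag 3.22, 3.02 and 6.60. In R1 and R2 the means of Cdh19, Mlip and Mag were under the background guide, like those of Spock3. Nearest to Smoc1 were Hes5, a Notch target gene (0.34), Ebf4 (0.38) and Shroom4 (0.41), and Hes5 had 6.26, 9.12 and 7.76. Nearest to Smoc2 were Cldn10, a tight junction gene (0.45), Ccbe1, a matrix gene needed for lymphatic growth (0.54), and Slco2b1, a transporter (0.58). Ccbe1 had 8.52, 6.64 and 4.75. The R3 means of Cldn10 and Ccbe1 and the R1 mean of Shroom4 were also under the background guide.

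Markers of other cell types moved between the gates beside these genes. The counts here and in the next paragraph stand beside the shares of all genes called. These were 6.89% higher and 6.16% lower for R2 against R1 and 7.9% and 10.8% for R3 against R1. For R3 against R2 they were 1.97% and 3.06%. Of 16 papilla markers 13 were called higher in R2 and 14 in R3 than in R1. The list includes Prom1, whose protein the gates were sorted on, and Sox2, which GFP reported in published work with such mice. These counts are therefore not independent of the sort. Sox2 and Notum were at or under the background guide in R1. Of 12 keratinocyte markers 11 were lower in R2 and 11 in R3 than in R1, with a summed level (log2 of the summed linear values) of 14.02 to 14.77 in R1, 11.08 to 11.18 in R2 and 10.82 to 11.64 in R3. All 6 mast cell markers were also lower in R2 and R3 than in R1. Of 12 endothelial markers 11 were higher in R2 than in R1, 12 were lower in R3 than in R2, and 2 were higher and 7 lower in R3 than in R1, with summed levels of 10.39 to 10.76, 12.12 to 12.43 and 9.99 to 10.40; in R3 Tie1, Emcn, Robo4, Esam and Vwf were at or under background. Smoc1 and the endothelial list were thus both highest in R2, and the part of these cells in that result was not tested. Lymphatic endothelial markers (5 measured) had summed levels of 11.11 to 11.29, 11.30 to 11.55 and 10.02 to 10.38. Of these 5 genes 3 were higher and 1 lower in R2 than in R1, and 3 were lower in R3 than in R1 and 3 than in R2. Pdpn, the brightest of them, had mean levels of 10.49, 9.68 and 9.39.

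Of the 11 Schwann and glial markers listed 9 were measured, and 8 of these were higher in R3 than in R2, 6 were higher in R3 than in R1 and 3 were lower in R2 than in R1. Their summed level was 10.38 to 10.91 in R1, 9.20 to 9.53 in R2 and 12.87 to 12.89 in R3, so the list was highest in the gate in which Spock3 was above background. Gfap was at or under background in all gates, Cdh19 and Foxd3 in R1 and R2, and S100b in R1. Mbp, the myelin basic protein gene, had mean levels of 7.80, 5.92 and 11.95. The part of Schwann cells in the Spock3 and Spock1 results was not tested. Of 12 dermal fibroblast markers 7 were lower in R2 than in R1, 8 in R3 than in R1 and 6 in R3 than in R2, with summed levels of 15.87 to 15.90, 15.12 to 15.32 and 14.97 to 15.06, the same order as Smoc2. That order was shared by the adipocyte markers (5 measured; 13.59 to 13.81, 13.06 to 13.42 and 11.85 to 12.31), the skeletal muscle markers (8; 9.35 to 9.83, 8.67 to 8.86 and 8.21 to 8.27) and the mast cell markers (13.31 to 13.82, 10.29 to 10.90 and 9.20 to 10.15). Of the 8 skeletal muscle markers 2 in R1, 4 in R2 and 6 in R3 were at or under background. Pericyte and smooth muscle markers (10) had 13.12 to 13.20, 13.02 to 13.13 and 12.84 to 13.05, with 2 higher and 5 lower in R2 than in R1. Their part in the Smoc2, Sparc and Sparcl1 results was not tested.

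**Figure D4:**
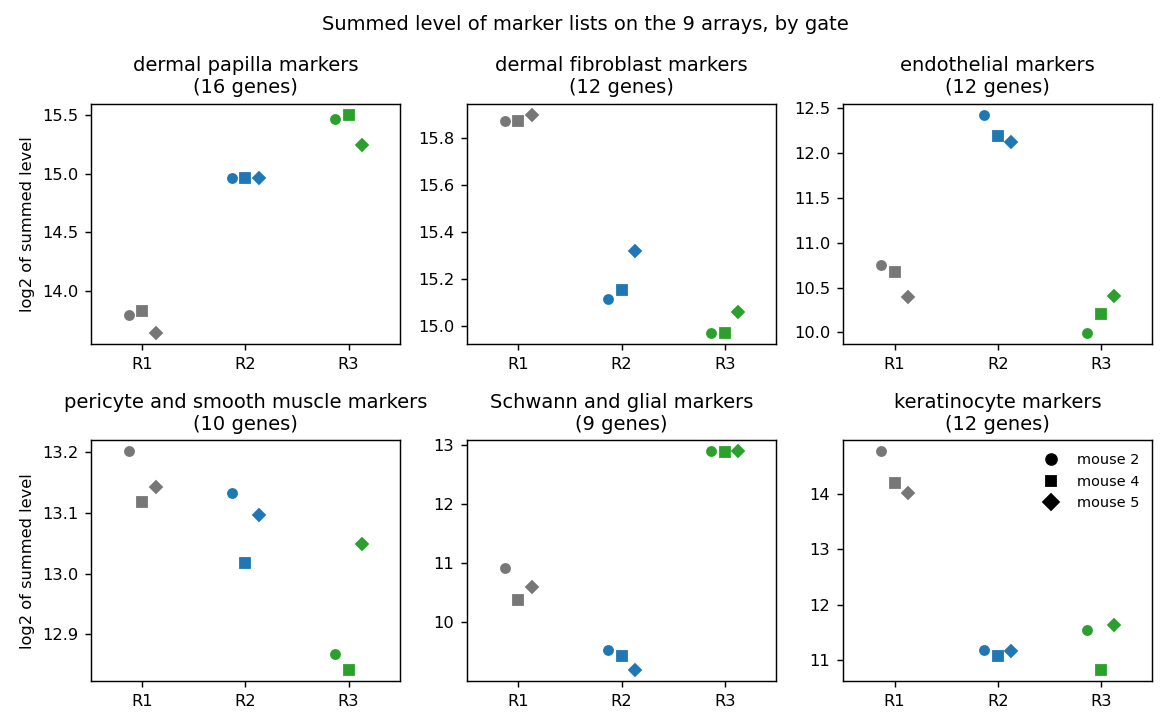
Summed level of 6 marker lists (log2 of the sum of linear values) on each of the 9 arrays, by gate, with a marker for each mouse. Endothelial markers peak in R2 at 12.12 to 12.43, Schwann and glial markers in R3 at 12.87 to 12.89, and keratinocyte and fibroblast markers in R1.

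Genes related to this family by domain or by known binding were counted in lists that are not independent of earlier results, and are given beside the share of all genes called, which was 6.89% higher and 6.16% lower for R2 against R1 and 7.9% and 10.8% for R3 against R1. For R3 against R2, where 1.97% and 3.06% of all genes were called, no list had more than 2 genes called in a direction, and these small counts are not described further. Among 11 genes with follistatin modules, 2 were higher and 4 lower in R2 than in R1, and 2 higher and 4 lower in R3 than in R1; their median changes were -0.07 and -0.14. The 4 lower in R2 became 2 or 3 with 1 array left out. They became 2 without the R1 array of mouse 4 or 5 or the R2 array of mouse 2. Agrn, the heparan sulfate proteoglycan agrin, was 2.64-fold higher in R2 than in R1 (limma adjusted p = 0.000114). Htra1, a secreted serine protease, was 4.6-fold lower in R3 than in R1 (adjusted p = 3e-05) and 2.78-fold lower in R3 than R2 (adjusted p = 0.000896). Fst, follistatin, an antagonist of activins and BMPs, had a 2.41-fold higher level in R3 than R2 (adjusted p = 0.000605).

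Among 11 genes with thyroglobulin modules, 3 were higher and 4 lower in R2 than in R1, and 4 higher and 2 lower in R3 than in R1, with median changes of 0.12 and 0.14. The 3 higher in R2 became 5 when genes under the median gene were left out, and the 2 lower in R3 became 4 with the mean of all probe sets. The basement membrane genes Nid2 and Nid1 were 3.02-fold and 1.76-fold higher in R2 than in R1 (limma adjusted p = 4.02e-05 and 0.00662). Igfbp5, which binds insulin-like growth factors, was 3.66-fold lower in R2 than in R1 (adjusted p = 0.000804) and 2.8-fold higher in R3 than in R2 (adjusted p = 0.00605). Cd74, the invariant chain of antigen-presenting cells, and Epcam, an epithelial adhesion gene, were 7.85-fold and 5.05-fold lower in R2 than in R1 (adjusted p = 2.48e-05 and 0.00102).

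Among 19 other matricellular genes 10 were lower and 2 higher in R3 than in R1 (8 to 9 lower with 1 array left out), and 6 were lower and 3 higher in R2 than in R1. The 3 became 1 or 2 with 1 array left out. They became 1 without the R1 array of mouse 4 or the R2 array of mouse 5. The 2 became 1 without the R1 array of mouse 2 or 4 or the R3 array of mouse 2 or 5. The 2 also became 1 with the mean of all probe sets and with the fixed mouse block. The median changes were -0.47 and -0.10. Tnxb, tenascin-X, was 6.37-fold lower in R2 than in R1 (limma adjusted p = 0.000113) and Thbs2, a thrombospondin, 2.67-fold lower (adjusted p = 0.000121). Ccn3, of the CCN family, was 2.51-fold lower in R3 than R2 (adjusted p = 0.0108).

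A list of 12 genes held collagen chains that SPARC can bind and Serpinh1, which is not itself a collagen chain. Of these 12 genes, 3 were higher and 3 lower in R2 than in R1. In R3, 2 were higher and 3 lower than in R1, and the median changes were -0.38 and -0.29. The 3 lower in R2 became 1 or 2 with 1 array left out. They became 1 without the R1 or the R2 array of mouse 2. The 2 higher in R3 became 1 whichever R1 or R3 array was left out. With the mean of all probe sets, and with a trend and robust variance, 6 were lower in R2 and 7 in R3. Col11a1, a fibril-forming collagen chain typical of cartilage, was 6.94-fold higher in R2 (limma adjusted p = 7.24e-06) and 8.08-fold higher in R3 (adjusted p = 3.88e-06) than in R1. Col4a2, of basement membranes, was 1.68-fold higher in R2 than in R1 (adjusted p = 0.00414), and Col5a1 1.54-fold lower (adjusted p = 0.00529).

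Of 10 proteases and inhibitors tied to testicans, 1 was higher and 3 lower in R2 than in R1, and 2 higher and 3 lower in R3 than in R1, with median changes of -0.40 and -0.25. The 1 higher in R2 was Mmp17, a membrane-anchored metalloproteinase (1.46-fold, limma adjusted p = 0.042), and it was lost whichever R1 or R2 array was left out, with the fixed mouse block, with the 6 arrays alone and with a trend and robust variance. Mmp2, the gelatinase whose activation testicans are reported to inhibit, was 2.55-fold lower in R2 than in R1 (limma adjusted p = 0.000275) and 4.18-fold lower in R3 than in R1 (adjusted p = 1.67e-05). Its levels were 10.995 ± 0.15, 9.64 ± 0.17 and 8.93 ± 0.14, the opposite order to that of Spock1, which was chosen for its R2 against R1 difference. The dermal fibroblast, adipocyte, skeletal muscle and mast cell marker lists had the same falling order as Mmp2. A link between Mmp2 and Spock1 was not tested. Reck, a membrane-anchored protease inhibitor, was 1.69-fold and 1.77-fold lower in R2 and R3 than in R1 (adjusted p = 0.00439 and 0.00198).

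Of 28 genes that build the glycosaminoglycan chains carried by testicans, 10 were lower and 4 higher in R3 than in R1 and 7 lower and 1 higher in R2 than in R1, with median changes of -0.09 and -0.20. With 1 array left out the 10 became 5 to 9, the 7 became 4 to 6 and the 4 became 2 to 3. The 10 became 5 and the 7 became 4 without the R1 array of mouse 4. The 7 also became 4 without the R2 array of mouse 2. The 4 became 2 without the R1 array of mouse 5 or the R3 arrays of mouse 2 or 4. The 1 higher in R2, Hs2st1 (1.42-fold, limma adjusted p = 0.0337), was lost without each R1 or R2 array in turn except the R1 array of mouse 4, with the 6 arrays alone and with the mean of all probe sets. Among genes above the median gene, 3 were lower in R2 and 6 in R3. Hs3st1, a heparan sulfate sulfotransferase, was 3.27-fold lower in R2 than in R1 (limma adjusted p = 7.98e-05), to a level of 5.03 ± 0.08 under background. Chst12, which sulfates chondroitin, was 2.5-fold lower (adjusted p = 0.000931).

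BMP ligands, receptors, SMADs and Id genes (19 genes) had 4 higher in R2 than in R1 and 7 higher in R3 than in R1. The median changes were 0.27 and 0.45. The 4 became 2 without the R1 arrays of mouse 4 or 5 or the R2 array of mouse 4. The 7 became 4 to 6 with 1 array left out, and 4 without the R1 or the R3 array of mouse 4. Bmp7 was 5.81-fold and 5.84-fold higher in R2 and R3 than in R1 (limma adjusted p = 6.39e-06 and 3.88e-06), and Bmp4, itself a listed papilla marker, 2.5-fold and 2.27-fold higher (adjusted p = 0.000266 and 0.000363). Bmp6 was 3.1-fold higher in R3 than in R1 (adjusted p = 0.000657). Among 13 receptors and ligands bound by SPARC or SPARCL1, 3 were higher and 1 lower in R2 than in R1, and 4 higher in R3 than in R1. The 3 became 1 or 2 with 1 array left out. They became 1 without the R1 array of mouse 4 or 5 or the R2 array of mouse 2 or 4, and with the 6 arrays alone. The 1 lower was Itgb3, an integrin subunit (1.58-fold, limma adjusted p = 0.021), which was lost without the R1 array of mouse 2 or 5 or the R2 array of mouse 2 or 4 and with the mean of all probe sets. Vegfa, the vascular growth factor that SPARC can bind, was 2.01-fold and 2.1-fold higher in R2 and R3 than in R1 (adjusted p = 0.00328 and 0.0016).

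**Figure D5:**
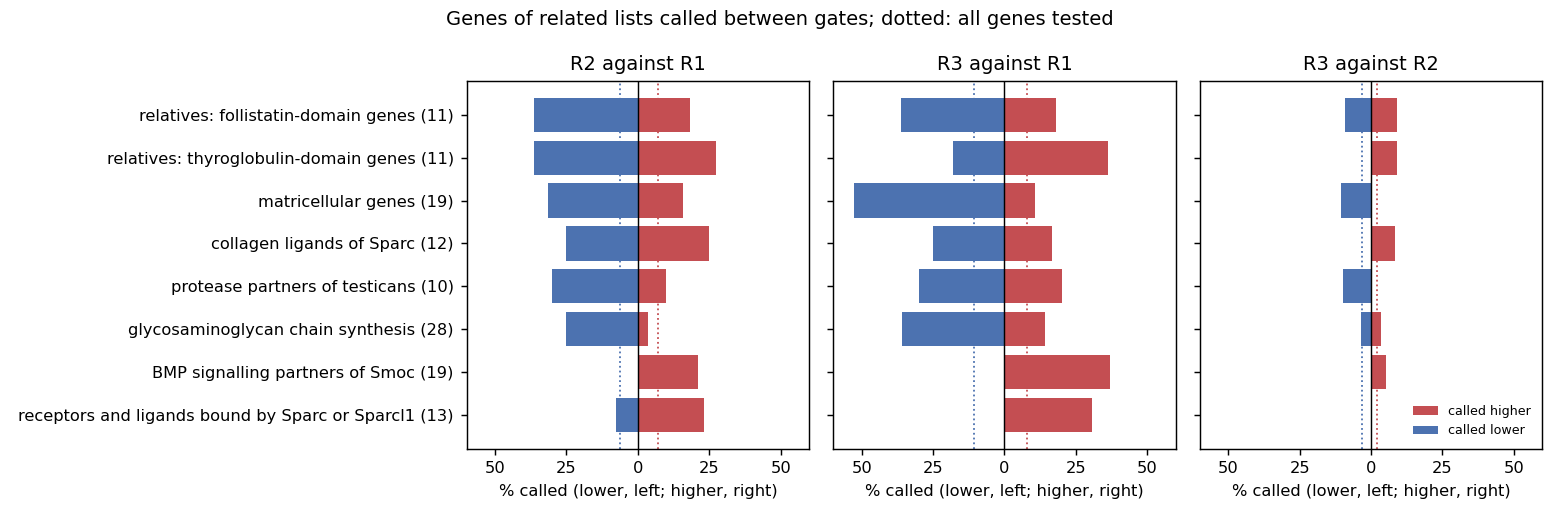
Percentage of the measured genes of each related list called higher (right) or lower (left) in the 3 comparisons, with the number of genes in parentheses and dotted lines at the share of all genes called. BMP signalling partners were called in the higher direction (7 of 19 in R3 against R1), and matricellular genes mostly in the lower (10 of 19). With 1 array left out these counts were 4 to 6 and 8 to 9.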

How the data were processed

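Per the labels' protocols, a column kit gave the RNA, which the WT-Ovation Pico system amplified before biotin labelling. The authors deposited log2 expression values per probe set for 9 one-colour arrays, made with RMA per the submitters' processing notes. Neither its software and version nor a joint normalization of all arrays is given in the sources used here. RMA makes the arrays' distributions alike and can compress folds.

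Of 45101 probe sets 34945 had 1 gene symbol in the platform annotation, 932 had several, 9160 had none and 64 were controls; those with 1 symbol gave 18193 genes, 9010 of them with several probe sets, and 18145 were found in a RefSeq gene table. Each gene was tested on its probe set with the highest mean, with limma (version 3.58.1, under R 4.3.3; lmFit, then contrasts.fit and eBayes), 1 coefficient per gate over 9 arrays, no block and no filter, and Benjamini-Hochberg adjustment. Gates and mouse numbers came from the labels, which tie same-numbered arrays to the same mouse, so arrays are paired. Deviations from gate means correlated at 0.00675 to 0.177 within a mouse and at -0.157 to 0.041 between mice. Whether a number stands for 1 animal is not stated beyond the label.

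The members and the gene lists were chosen with earlier results of these data known. Spock1 therefore has no test. Named were all members, the gate genes, up to 3 genes per direction, list and comparison with the lowest p, the 3 genes most like each member, and defining markers; of the list genes so named, the text gives some of those that kept their call in each of the 13 or 14 alternatives run for them, and 3 that did not and made up a count of 1. The alternatives were a fixed or random mouse block, each array left out, the 6 arrays compared alone, centring on the median, quantile normalization again, the mean of probe sets or each probe set singly, genes above the median gene, and a trend with robust variance. The limma step was tested on simulated data. Plots used matplotlib 3.10.9 and tables pandas 2.3.3 with numpy 2.4.6, all under Python 3.11.15.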

Additional observations from a re-analysis of the deposited data

How the results depend on the processing

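Over the alternatives the number of the 6 tested genes called was 2 to 4 for R2 against R1, 4 to 5 for R3 against R1 and 2 to 3 for R3 against R2. Spock3 lay under the median gene, so the alternative on genes above it left Spock3 out. There R3 against R2 had 0 called higher and 2 lower, beside 1 and 1 in the main fit. With the mouse as a fixed replicate block the Sparc calls were lost (adjusted p = 0.0603 and 0.0565 by limma) and Smoc2 in R3 against R2 was gained (0.0492). With a random block Sparc kept its calls (0.0348 and 0.033) and Smoc2 was gained (0.0489). Neither block changed another call of the 6 genes. Sparc also lost its calls when arrays were centred on their medians (0.0561 and 0.117), normalized again by quantiles (0.0634 and 0.0726), fitted as 6 arrays (0.0738 and 0.0703) or tested as single probe sets (0.0557 and 0.0515). Smoc2 was called lower in R2 than in R1 with the mean of probe sets (0.00179), with 6 arrays (0.00164) and when genes under the median gene were left out (0.0398); over all alternatives its adjusted p ran from 0.00164 to 0.168 there and from 0.00279 to 0.179 for R3 against R2. Signs turned for uncalled differences near 0. Spock2 in R3 against R1 came to 0.0868 with median centring and 0.0895 with quantiles again, and ran from -0.122 to 0.0745 with 1 array left out (above 0 without R1 replicate 2, 0.0535, R3 replicate 2, and R3 replicate 5, 0.0187). With 1 array left out it ran in R3 against R2 from -0.0278 (without R3 replicate 4) to 0.169, and it reached 0.212 with quantiles again. Sparc in R3 against R2 came to -0.0446 with the mean of probe sets and 0.1 with median centring, and with 1 array left out ran from -0.028 (without R2 replicate 4; -0.003 without R3 replicate 5) to 0.0556. The Spock1 difference of R3 from R2 was 1.42 with the mean of its probe sets. The cause of these shifts was not tested. Signals near background limit Spock3, Spock1 and Smoc1 in R1, Smoc2 in R3 and the second probe set of Spock2.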
